A study of Caenorhabditis elegans with 21 samples.

Results

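The insulin receptor to DAF-16 signalling core of Caenorhabditis elegans was followed here at the level of its own transcripts, through 10 genes: daf-2, ist-1, age-1, aap-1, daf-18, pdk-1, akt-1, akt-2, sgk-1 and daf-16. A locus was taken as a member when the gene names attached to it in the deposited count table included 1 of these 10 symbols. All 10 were found, each in 1 locus, among the 33886 loci of the table. All 10 also passed the filter on low counts and are among the 12091 loci that were tested.

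In this pathway DAF-2, the insulin and IGF-1 receptor, signals through the phosphoinositide 3-kinase made of AGE-1 and AAP-1, and DAF-18 opposes this kinase. The lipid that the kinase makes activates PDK-1, which in turn activates the kinases AKT-1, AKT-2 and SGK-1. The AKT kinases phosphorylate the FoxO transcription factor DAF-16 and keep it out of the nucleus. When the receptor is weakened, DAF-16 enters nuclei and the animals live longer, and daf-16 itself gives rise to several isoforms from different start sites, among them the a and f isoforms.

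RNA came from whole animals on day 1 of adulthood, from plates free of males, in 7 genotypes with 3 libraries each, 21 in all. Of the 6 strains that carry daf-2(e1370), a mutation that reduces receptor function, 5 also carry a daf-16 mutation: daf-16(mu86), described by the labels as null; daf-16(mg54), which affects the a and f isoforms; daf-16(tm5030) and daf-16(tm5032), 2 separate mutations of the a isoform; and daf-16(tm6659), a mutation of the f isoform. They are called mu86, mg54, tm5030, tm5032 and tm6659 here, and each is set against daf-2(e1370) with wild-type daf-16, called daf-2 as a group. That strain is in turn set against N2, the wild-type laboratory strain. All strains came from a 4-hour egg-lay, were raised at 15 °C to the L4 stage and then held at 20 °C for 20 to 24 hours. The alleles are germline alleles present in every cell, and the measurements are of whole animals, so that fewer cells of a type and less RNA per cell cannot be told apart. Nothing says whether the 3 libraries of a genotype came from separate cultures, and the p-values therefore measure only the spread between these libraries, which may be technical.

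Changes are log2 ratios of fragment counts scaled to library size (CPM) from edgeR's quasi-likelihood test, fitted over all 21 libraries. A locus was called changed at a Benjamini-Hochberg adjusted p under 0.05 over the 12091 loci, and intervals are 95% intervals. Library depth ran between 30384772 and 47170645 fragments. The 4 known DAF-16 targets used to check the labels (sod-3, mtl-1, dod-3 and lea-1) were all lower in mu86 and in mg54 than in daf-2, and all higher in daf-2 than in N2. sod-3, a superoxide dismutase gene, averaged 1.70 CPM in mu86, 4.04 in mg54, 12.5 in tm5030, 11.7 in tm5032 and 47.8 in tm6659, against 42.9 in daf-2, and 2.20 in N2. lea-1, a gene for a LEA protein, ran otherwise, at 217 CPM in mu86, 229 in mg54, 2012 in tm5030, 1985 in tm5032 and 247 in tm6659, against 1952 in daf-2, and 289 in N2. Libraries also differed by their number within a genotype: summed sperm markers were highest in the library numbered 3 in all 7 genotypes, for example at 2859 CPM in mu86 replicate 3 against 978 in mu86 replicate 1.

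4 members form a locus of their own: daf-2 (chromosome III, 2994514 to 3040846, minus strand), pdk-1 (X, 1321344 to 1327986, plus strand), akt-1 (V, 10248905 to 10252845, plus strand) and daf-16 (I, 10750498 to 10776703, plus strand). The other 6 share their locus, and so their count, with neighbouring genes. The age-1 locus (age-1 at II, 11519328 to 11527054, minus strand) also holds mdt-8 and Y62F5A.12, and the aap-1 locus (aap-1 at I, 5107843 to 5110183, plus strand) also holds ift-20, use-1 and Y110A7A.23. ist-1 (X, 7126648 to 7139666, plus strand) is counted together with clec-86 and C36B7.8, and akt-2 (X, 14147700 to 14152070, plus strand) with ceh-89. sgk-1 (X, 16254842 to 16262122, minus strand) is counted with mua-6, and daf-18 (IV, 420011 to 425177, minus strand) with eri-1. A change of such a locus cannot be assigned to 1 of its genes, and it is named below as the locus. Coordinates are those of the Ensembl 115 annotation of WBcel235, looked up by symbol, since the sources used here do not give the build behind the counts. The library kit is taken not to mark strand, which the labels do not state. Genes on the opposite strand overlap age-1 (2 genes), aap-1 (1), pdk-1 (1), akt-1 (1) and daf-16 (6).

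Per length, the member loci spanned a wide range of levels. The level of a shared locus includes its neighbouring genes and is not that of the member alone. On the authors' FPKM scale (fragments scaled for length and library), the daf-18 locus averaged 196 ± 61.4 in daf-2 and 329 ± 96.0 in N2 (SD, n = 3 each, as throughout this paragraph). The age-1 locus stood at 174 ± 79.2 FPKM in daf-2 and 279 ± 94.8 in N2, and akt-1, a kinase gene with a locus of its own, at 146 ± 37.4 FPKM in daf-2 and 165 ± 40.8 in N2. At the other end stood the receptor's adaptor and the upstream kinase. The ist-1 locus averaged 3.25 ± 0.704 FPKM in daf-2 and 2.77 ± 1.27 in N2, and pdk-1 averaged 6.46 ± 1.81 FPKM in daf-2 and 5.27 ± 0.665 in N2. daf-16 lay between them at 62.5 ± 16.8 FPKM in daf-2 and 110 ± 23.9 in N2, and the receptor gene daf-2 at 24.5 ± 7.04 FPKM in daf-2 animals and 29.4 ± 6.80 in N2. In daf-2 animals the libraries of neighbours in this order overlapped among the daf-18, age-1 and akt-1 loci, between the aap-1 locus and daf-16, and between daf-2 and the sgk-1 and akt-2 loci on either side of it. pdk-1 and the ist-1 locus each stood apart from the locus above. Over all loci tested, the median log2 change of FPKM with 1 added was -0.37 in daf-2 against N2, against 0.08 in the counts. Differences between daf-2 and N2 on this scale include that shift. In the counts, the daf-18 locus, the age-1 locus and daf-16 changed by -0.13, -0.07 and -0.19 between them, none called.

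**Figure D1:**
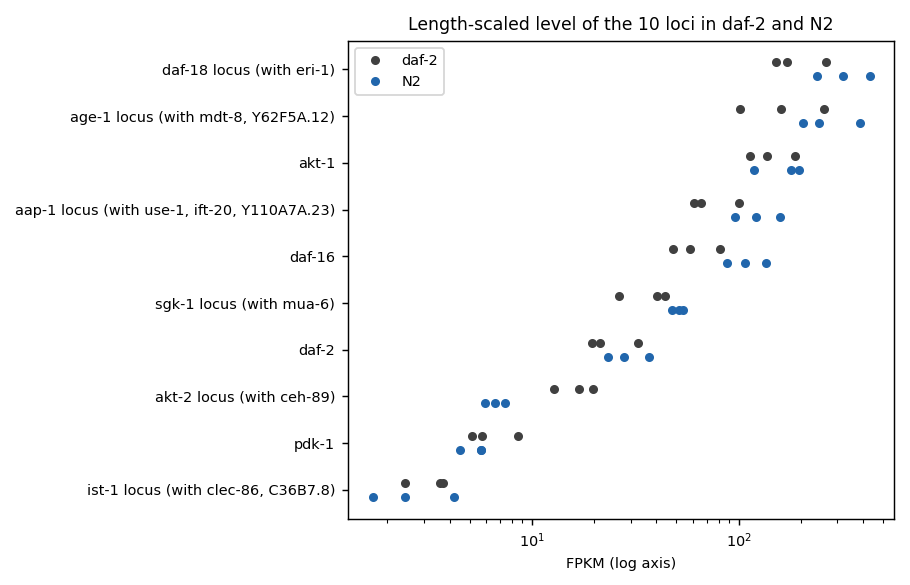
FPKM of the 10 loci on a log axis in daf-2 (above) and N2 (below), with 1 point per library and 3 libraries per genotype. The daf-18, age-1 and akt-1 loci are at the high end and pdk-1 and the ist-1 locus at the low end; the akt-2 locus stands apart between genotypes, with means of 16.5 FPKM in daf-2 and 6.67 in N2.

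The gene that carries the mutations comes first. daf-16 counts were 145, 150 and 167 CPM in mu86, 94.4, 94.3 and 94.0 CPM in mg54, and 49.0, 54.01 and 70.1 CPM in tm6659. They were 135, 156 and 139 CPM in tm5030 and 158, 181 and 157 CPM in tm5032. In daf-2 animals the 3 values were 142, 173 and 175 CPM, and in N2 186.5, 192 and 182 CPM. The tm6659 libraries were the lowest of all genotypes and the mg54 libraries the next, and neither overlapped daf-2, whereas mu86, tm5030 and tm5032 did. A count of the whole locus does not tell where in daf-16 its fragments lie, and a null allele can leave transcript behind, so the mu86 count does not check its label.

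Relative to daf-2, the daf-16 transcript was 2.83-fold lower in tm6659 (log2 change -1.50 ± 0.11 SE, edgeR adjusted p = 1.49e-06) and 1.73-fold lower in mg54 (-0.79 ± 0.11, adjusted p = 0.000191). In tm6659 it was the only member called, where 0.174% of all loci were called and 0.132% were called lower (5 of 21 calls higher, against 13 of 32 with upper-quartile scaling). On the FPKM scale the tm6659 change was -1.52, with a limma adjusted p of 0.0869. In mu86 the change was -0.08 (edgeR adjusted p = 0.796; 0.40 on the log2(FPKM + 1) scale, also not called), and in tm5030 and tm5032 it was -0.18 (adjusted p = 0.886) and 0.02 (adjusted p = 0.999). Set directly against mu86, mg54 had 1.63-fold less daf-16 RNA (-0.71 ± 0.11, adjusted p = 0.0277), the only member called where 0.0331% of loci were. That call was lost without any 1 of the 6 libraries (adjusted p between 0.0778 and 0.213), and with the replicate number as a block the adjusted p was 0.00506. The mean of the strains tm5030 and tm5032 had 2.67-fold more daf-16 RNA than tm6659 (1.42 ± 0.10, adjusted p = 4.8e-07), in a comparison where 2.44% of loci were called. Against N2, daf-16 was lower by 1.69 in tm6659 (adjusted p = 1.48e-07, with 12% of loci called), by 0.99 in mg54 (adjusted p = 0.000231, with 0.984% of loci called) and by 0.38 in tm5030 (adjusted p = 0.0389, with 10.7% of loci called). The tm5030 call was lost without any 1 N2 library and without tm5030 replicate 1 or 3.

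The isoforms are built from different lengths of RNA. The annotation lists 11 daf-16 transcripts with 912 bases of exons (daf-16e) to 2765 bases (daf-16a). The start of daf-16h is the start of the gene, daf-16f starts 134 bases into it, daf-16b and daf-16c 12605 bases into it, and daf-16a 21010 bases into it. FPKM divides the fragments by the length of the transcripts they are assigned to, and the ratio of FPKM to fragments therefore moves when the authors' assignment among transcripts of unlike length moves. This ratio was taken per library on a log2 scale, after subtracting the library's median over 11325 loci. daf-16 was at -0.45, -0.50 and -0.45 in mu86, against -0.92, -0.94 and -0.96 in daf-2 and -0.95, -0.89 and -0.95 in N2. All 3 mu86 values lay above the other 18 libraries. The other mutants were at -1.06 to -0.99 in mg54, -0.93 to -0.84 in tm5030, -0.93 to -0.87 in tm5032 and -1.15 to -0.97 in tm6659.

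FPKM per daf-16 fragment was thus 1.39-fold higher in mu86 than in daf-2 (log2 difference 0.47 ± 0.04 SE, limma adjusted p = 5.34e-05). Of all 11325 loci, daf-16 had the lowest p in that comparison, and 0.053% of loci were called. Against N2 the mu86 ratio was 1.38-fold higher (0.46, limma adjusted p = 6.88e-05, with 0.0177% of loci called). mg54 was below mu86 by 0.57 on the log2 scale (limma adjusted p = 3.99e-06, with 0.00883% of loci called). The other mutants were not called against daf-2 (0.0265% of loci called in mg54 and 0% in tm5030, tm5032 and tm6659), and the largest of their differences was -0.14 in tm6659 (unadjusted p = 0.00285, limma adjusted p = 1.00). The mu86 differences kept their call without any 1 library, with values of 0.46 to 0.49 against daf-2 and of 0.45 to 0.48 against N2. Without all 7 libraries numbered 2, or all 7 numbered 3, they were 0.49 and 0.45 against daf-2 (limma adjusted p = 0.124 and 0.0916) and were not called. The same held for mu86 against N2 (adjusted p = 0.163 and 0.283) and for mg54 against mu86 (adjusted p = 0.108 and 0.0595). The ratio is a product of the authors' quantification and does not name the transcripts involved.

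**Figure D2:**
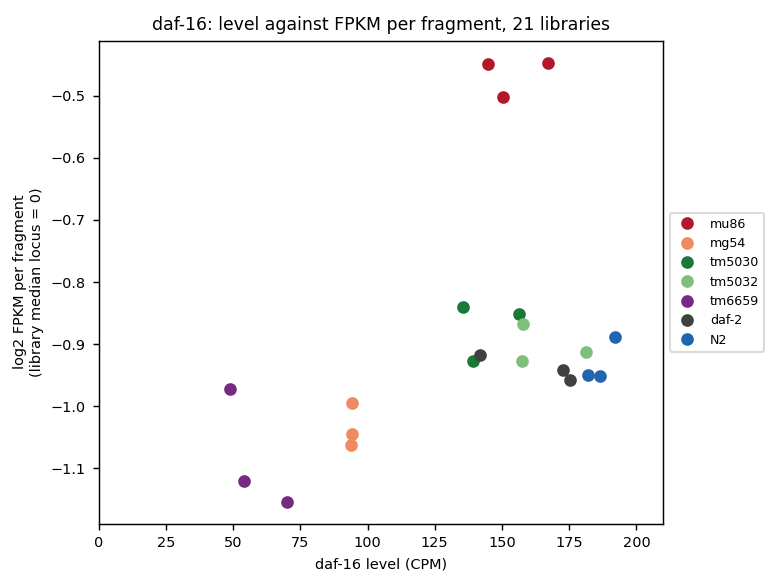
daf-16 CPM (horizontal axis) against FPKM per daf-16 fragment on a log2 scale, centred on the library median (vertical axis), with 1 point per library and 7 genotypes by colour. The mu86 libraries lie apart from the other 18 on the vertical axis, between -0.50 and -0.45, and the tm6659 and mg54 libraries lie lowest on the horizontal axis.

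Upstream of daf-16, 5 members were called higher in daf-2 animals than in N2, with none lower: the akt-2 and ist-1 loci, pdk-1, akt-1 and the receptor gene daf-2. Of all loci, 16.7% were called in this comparison and 10.9% were called higher. Of the 2018 loci called there, 1312 were higher, against 1165 of 2125 with relative log expression scaling and 1243 of 2464 with upper-quartile scaling. The median change of the 10 members was 0.27, against 0.08 over all loci tested, and the libraries did not overlap for 7 of the 10, against 38.9% of all loci. The same 5 members were lower in mu86 than in daf-2, where 10.3% of loci were called and 6.16% were called lower, and the members' median was -0.44 against -0.01 over all loci. In mg54 they were lower as well, with daf-16 as a 6th, where 9.35% of loci were called and 5.57% were called lower, and the members' median was -0.61 against -0.01. These comparisons share the daf-2 libraries, so the mirrored directions are not separate evidence. Of the loci called in mu86 against daf-2, 499 of 1244 were higher, against 743 of 1420 with upper-quartile scaling. Without the 7 libraries numbered 1, none of the 5 members was called in daf-2 against N2, pdk-1 alone in mu86 against daf-2 and daf-16 alone in mg54 against daf-2. Of 12124 loci, 326, 223 and 180 were called in these 3 comparisons.

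Against daf-2, no member upstream of daf-16 was called in tm5030 (0.91% of loci called) or tm5032 (1.04% of loci called), by edgeR without a block, or in tm6659. In each of tm5030 and tm5032, 4 members did not overlap daf-2 (11.2 and 10.9% of loci) and 4 had an unadjusted p under 0.05 (as had 954 loci in tm5030 and 962 in tm5032). In tm6659 also 4 members did not overlap daf-2, namely daf-16 and the age-1, aap-1 and daf-18 loci. The share of all loci for that pair is not given here. There 1 member had an unadjusted p under 0.05, as had 409 loci. DESeq2, given 33586 loci, called 1 member and 285 loci in tm5030, and 2 members and 273 loci in tm5032. After subtracting genotype means, same-numbered libraries of tm5030 and daf-2 had r of 0.17, 0.75 and 0.57 for numbers 1, 2 and 3. For tm5032 and daf-2 r was 0.26, 0.75 and 0.55, while differently numbered libraries of the series reached 0.65. With the replicate number as a block 4 members were lower in each strain, where 455 of the 12091 loci were called in tm5030 and 439 in tm5032. No member was called in mu86 against N2 (1.52% of loci called), where 6 had an unadjusted p under 0.05, as had 3415 of the 12091 loci. DESeq2 called 0 members there and 724 of its 33586 loci. The libraries of that pair did not overlap for 8 members, against 41.2% of loci. With the replicate block 8 members were called in that pair, where 5827 of the 12091 loci were called too, so that the count says little about the members. Between tm5030 and tm5032 no member was called and none had an unadjusted p under 0.05 (0.0248% of loci called, DESeq2 0 members and 5 loci).

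**Figure D3:**
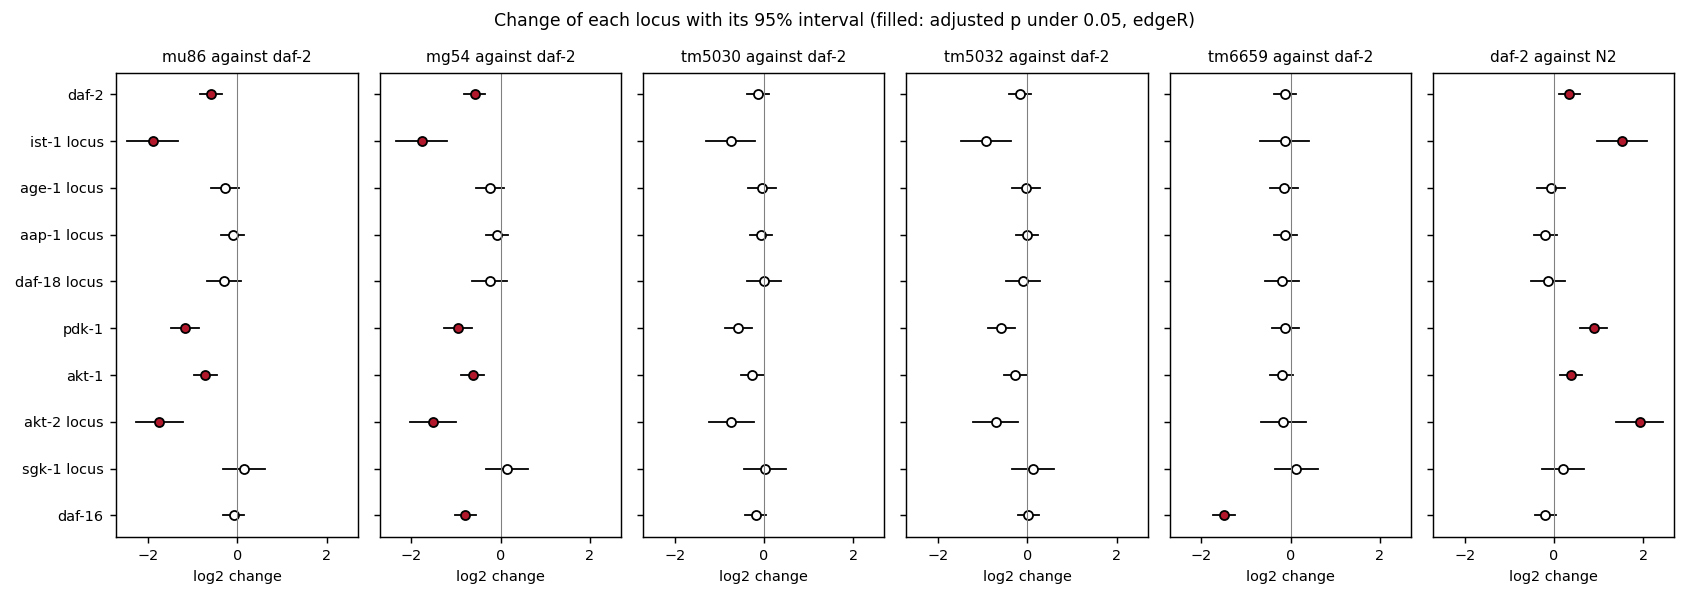
Log2 change in CPM of each member locus, with its 95% interval, for the 5 daf-16 mutants against daf-2 and for daf-2 against N2; filled points have an edgeR adjusted p under 0.05. The ist-1 and akt-2 loci, pdk-1, akt-1 and daf-2 are below 0 in mu86 and mg54 and above 0 in daf-2 against N2. In that last comparison daf-2 and akt-1 are at -0.26 and -0.17 on the log2(FPKM + 1) scale. The median over all loci there is -0.37, against 0.08 in CPM.

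DAF-2 is the only insulin receptor of this pathway. Its transcript stood at 126, 118 and 102 CPM in mu86 and 119.2, 120.0 and 107 CPM in mg54, against 163, 187 and 170 CPM in daf-2 animals. N2 had 134, 146 and 129 CPM. All libraries of mu86 and mg54 were below all of daf-2 and of N2, and N2 was below daf-2. The receptor transcript was lower in mu86 (log2 change -0.59 ± 0.11, edgeR adjusted p = 0.00246) and in mg54 (-0.58, adjusted p = 0.0029) than in daf-2. It was 1.27-fold higher in daf-2 than in N2 (0.35 ± 0.11, adjusted p = 0.0485). That last call was lost without any 1 of the 6 libraries, with relative log expression scaling and by DESeq2. On the log2(FPKM + 1) scale the value was -0.26, beside a median of -0.37 over all loci. Means were 157 ± 23.7 CPM in tm5030, 155 ± 20.2 in tm5032 and 159 ± 13.0 in tm6659 (SD, n = 3 each), and none of these was called against daf-2. In mu86 against N2 it changed by -0.24 (adjusted p = 0.176), and with the replicate block by -0.24 (adjusted p = 0.0125).

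The ist-1 locus holds the gene for an insulin receptor substrate homologue, an adaptor that helps signalling from the receptor. It had 4.39, 3.92 and 3.12 CPM in mu86 and 4.89, 2.59 and 4.96 CPM in mg54, against 17.7, 13.3 and 11.6 CPM in daf-2 animals. N2 had 4.83, 4.48 and 5.57 CPM. The daf-2 libraries were all above the libraries of these 3 genotypes. The locus was 3.72-fold lower in mu86 (-1.90 ± 0.27, edgeR adjusted p = 0.00015) and 3.42-fold lower in mg54 (-1.77, adjusted p = 0.000329) than in daf-2. In daf-2 it was 2.86-fold higher than in N2 (1.52 ± 0.27, adjusted p = 0.000749), a call that was kept without any 1 library. On the log2(FPKM + 1) scale the daf-2 to N2 difference was 0.21 and was not called, beside a median of -0.37 over all loci. FPKM per fragment of this locus varied widely between libraries, from -1.81 to -0.20 on the centred log2 scale.

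In the a isoform mutants tm5030 and tm5032 the ist-1 locus had means between these levels. It had 9.47, 6.53 and 9.41 CPM in tm5030 and 8.40, 5.38 and 8.58 CPM in tm5032, against 11.6 to 17.7 CPM in daf-2 and 4.48 to 5.57 CPM in N2. Each library of tm5030 and tm5032 was below every daf-2 library, and 1 library of tm5032 fell within the N2 range. On the log2(FPKM + 1) scale the tm5030 change was 0.13, opposite in sign. In the counts the change from daf-2 was -0.75 in tm5030 (edgeR adjusted p = 0.301) and -0.93 in tm5032 (adjusted p = 0.139), and with the replicate block -0.76 (adjusted p = 0.0362) and -0.95 (adjusted p = 0.0108). The mean of both strains was below daf-2 by 0.84 (adjusted p = 0.0645), and by 0.85 with the block (adjusted p = 0.00437). In tm6659 the locus had 14.6, 10.5 and 13.7 CPM, which overlapped daf-2, with a change of -0.14 and an interval from -0.68 to 0.41. The mean of tm5030 and tm5032 was below tm6659 by 0.70 on the log2 scale (adjusted p = 0.121), and by 0.71 with the replicate block (adjusted p = 0.0113).

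AGE-1 is the catalytic and AAP-1 the adaptor subunit of the phosphoinositide 3-kinase. The age-1 locus had 209, 194 and 156 CPM in mu86 and 188, 225 and 159.8 CPM in mg54, against 212, 246 and 216 CPM in daf-2, and 233, 262 and 214 CPM in N2. The aap-1 locus had 214, 198 and 169 CPM in mu86, against 200.5, 216 and 209 CPM in daf-2, and 244, 252 and 218 CPM in N2. Neither locus was called in any comparison with daf-2 or N2 without a block. FPKM per fragment of the age-1 locus differed by library number, on the centred log2 scale. It ran from -0.47 to -0.31 in libraries numbered 1, 0.17 to 0.24 in those numbered 2 and 0.19 to 0.33 in those numbered 3. The libraries of daf-2 and N2 did not overlap for the aap-1 locus, but the change was -0.19 with an edgeR adjusted p of 0.259. In tm6659 against N2 the aap-1 change was -0.31 (adjusted p = 0.104). With the replicate block the age-1 locus was lower in mg54 than in daf-2 (-0.25, adjusted p = 0.0329). In mu86 against N2, the blocked change was -0.34 for the age-1 locus (adjusted p = 0.00477) and -0.30 for the aap-1 locus (adjusted p = 0.00873).

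DAF-18 opposes that kinase. The daf-18 locus had 699, 666 and 465 CPM in mu86 and 633, 761 and 489 CPM in mg54, against 685, 819 and 737 CPM in daf-2, and 825, 909 and 715 CPM in N2. The daf-2 libraries overlapped those of mu86 and of N2, while mu86 lay below N2. The change was -0.29 in mu86 against daf-2 and -0.13 in daf-2 against N2, neither called. With the replicate block the locus was lower in mu86 than in N2 (-0.43, edgeR adjusted p = 0.00881).

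The 3 loci of the lipid step moved together between libraries. Over the 21 libraries, Pearson's r of log2 CPM was 0.96 between the age-1 and daf-18 loci, 0.90 between the age-1 and aap-1 loci and 0.91 between the aap-1 and daf-18 loci, which share libraries and depth. The sgk-1 locus ran the other way, with r of -0.84, -0.79 and -0.78 to the age-1, aap-1 and daf-18 loci. In the daf-18 locus, for example, the libraries numbered 2 had 894 CPM in tm5030 and 774 in tm5032, while those numbered 3 had 569.8 CPM in tm5030 and 602 in tm5032. The summed sperm markers of these same libraries were 492 and 399 CPM for number 2 and 2693 and 2286 CPM for number 3, and their part in the pattern was not tested.

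PDK-1 is the kinase that activates the AKT and SGK kinases. Its transcript was scarce, at 8.07, 8.62 and 6.54 CPM in mu86 and 8.51, 10.4 and 8.03 CPM in mg54, against 17.0, 17.9 and 17.3 CPM in daf-2. N2 had 10.5, 8.78 and 8.87 CPM. The daf-2 libraries were close together and above all libraries of mu86, mg54 and N2. pdk-1 was 2.25-fold lower in mu86 (-1.17 ± 0.15, edgeR adjusted p = 4.29e-05) and 1.94-fold lower in mg54 (-0.95, adjusted p = 0.00034) than in daf-2. It was 1.85-fold higher in daf-2 than in N2 (0.89 ± 0.14, edgeR adjusted p = 0.000388), a call kept without any 1 library. On the log2(FPKM + 1) scale the difference was 0.23 and was not called, beside a median of -0.37 over all loci.

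pdk-1 showed the same order of isoform mutants as the ist-1 locus. It had 11.5, 13.1 and 10.5 CPM in tm5030 and 11.6, 13.2 and 10.1 CPM in tm5032. All 6 libraries were below daf-2, and 1 library of tm5032 fell within the N2 range. The change from daf-2 was -0.57 in tm5030 (edgeR adjusted p = 0.0807) and -0.58 in tm5032 (adjusted p = 0.0702), and with the replicate block -0.58 (adjusted p = 0.00695) and -0.59 (adjusted p = 0.00521). The mean of the 2 strains was 1.49-fold below daf-2 (-0.58 ± 0.12, adjusted p = 0.0182, with 1.87% of loci called). That call was lost without any 1 daf-2 library and without replicate 1 or 3 of either strain (adjusted p between 0.0627 and 0.126). tm6659 had 15.8, 17.0 and 15.3 CPM, with a change from daf-2 of -0.12 and an interval from -0.42 to 0.18. The mean of tm5030 and tm5032 was below tm6659 by 0.46 (adjusted p = 0.0573), and by 0.47 with the replicate block (adjusted p = 0.00442).

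AKT-1 is a kinase that phosphorylates DAF-16. akt-1 was an abundant transcript, with 255, 255 and 196 CPM in mu86 and 246, 298 and 211 CPM in mg54, against 399, 409 and 360.0 CPM in daf-2. N2 had 310, 321 and 267 CPM. mu86 and mg54 did not reach the daf-2 range, and daf-2 was above N2. akt-1 was 1.65-fold lower in mu86 (-0.72 ± 0.12, edgeR adjusted p = 0.000719) and 1.55-fold lower in mg54 (-0.63, adjusted p = 0.00252) than in daf-2. In daf-2 it was 1.30-fold higher than in N2 (0.38 ± 0.12, edgeR adjusted p = 0.0411). This call was lost without any 1 of the 6 libraries, with relative log expression scaling and by DESeq2. On the log2(FPKM + 1) scale the value was -0.17, beside a median of -0.37 over all loci. The means were 323 ± 26.3 CPM in tm5030, 323 ± 15.7 in tm5032 and 339 ± 24.9 in tm6659 (SD, n = 3 each). The change from daf-2 was -0.27 in tm5030 and -0.27 in tm5032, called with the replicate block only (adjusted p = 0.0247 and 0.0251; for the mean of both strains -0.27, adjusted p = 0.00646). In tm6659 it was -0.20, with an interval from -0.46 to 0.06.

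AKT-2 is the second AKT kinase, and its locus had the largest change of any member in daf-2 against N2. It had 9.98, 9.61 and 13.0 CPM in mu86 and 13.0, 9.77 and 15.5 CPM in mg54, against 43.6, 34.3 and 31.5 CPM in daf-2, and 8.59, 9.06 and 11.2 CPM in N2. Every daf-2 library was above every library of these 3 genotypes, and mu86 overlapped N2. The locus was 3.36-fold lower in mu86 (-1.75 ± 0.25, edgeR adjusted p = 0.000151) and 2.85-fold lower in mg54 (-1.51, adjusted p = 0.000628) than in daf-2. It was 3.79-fold higher in daf-2 than in N2 (1.92 ± 0.25, adjusted p = 5.09e-05). That call was kept without any 1 library, with every scaling and on the FPKM scale (1.17).

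The a isoform mutants tm5030 and tm5032 fell in between here too, while tm6659 overlapped daf-2. The akt-2 locus had 21.7, 15.7 and 28.4 CPM in tm5030 and 23.2, 15.4 and 28.1 CPM in tm5032, against 31.5 to 43.6 CPM in daf-2 and 8.59 to 11.2 CPM in N2. All 6 libraries lay below daf-2 and above N2. Against N2 the locus was 2.28-fold higher in tm5030 (1.19, edgeR adjusted p = 0.00501) and 2.31-fold higher in tm5032 (1.21, adjusted p = 0.0042, with 10.4% of loci called). With the replicate block, tm5030 was also above N2 in the daf-2 transcript (0.20, adjusted p = 0.0371), the ist-1 locus (0.75, adjusted p = 0.00897) and pdk-1 (0.31, adjusted p = 0.0381), and below it in the aap-1 locus (-0.26, adjusted p = 0.0208), where 4653 of the 12091 loci were called. Without the block the daf-2 and pdk-1 changes of that pair were 0.21 and 0.31 in the counts. On the log2(FPKM + 1) scale they were -0.30 and -0.17, beside a median of -0.23 over all loci. Against daf-2 the changes were -0.73 (adjusted p = 0.253) and -0.71 (adjusted p = 0.284), and with the replicate block -0.77 (adjusted p = 0.0276) and -0.75 (adjusted p = 0.0319). The mean of both strains changed by -0.72 from daf-2 (adjusted p = 0.0916) and by -0.56 from tm6659 (adjusted p = 0.215), and with the replicate block by -0.76 (adjusted p = 0.00686) and -0.60 (adjusted p = 0.0242). tm6659 had 37.3, 31.2 and 29.2 CPM, overlapping daf-2, with a change of -0.16 and an interval from -0.67 to 0.35. Against N2, tm6659 was 3.38-fold higher (1.76, adjusted p = 0.000168), and the ist-1 locus (1.38, adjusted p = 0.00212) and pdk-1 (0.77, adjusted p = 0.00174) were higher too. The interval of mu86 against N2 ran from -0.34 to 0.69 around 0.17. On the log2(FPKM + 1) scale that change was -0.44, beside a median of -0.29 over all loci.

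Per length, the akt-2 locus had 4.54, 4.61 and 8.20% of the akt-1 level in mu86 and 5.89, 4.40 and 9.01% in mg54, against 12.3, 10.5 and 11.4% in daf-2. N2 had 3.34, 3.78 and 5.57%. The daf-2 ratios were above all ratios of those 3 genotypes. tm6659 had 11.5, 12.6 and 12.3%, whereas tm5030 spread from 5.89 to 12.7% and tm5032 from 6.32 to 11.7%. On the FPKM scale itself the locus was even across libraries of the a isoform mutants, at 10.3 to 10.5 FPKM in tm5030 and 10.5 to 10.9 FPKM in tm5032, where CPM spread widely. The FPKM scaling also differed between these libraries. In tm5030, for example, akt-1 had 138, 178 and 82.5 FPKM at 331, 345 and 294 CPM. The even FPKM values therefore do not show a steadier level of the akt-2 locus. The shares are of FPKM, and the FPKM of the locus includes ceh-89, a homeobox gene.

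**Figure D4:**
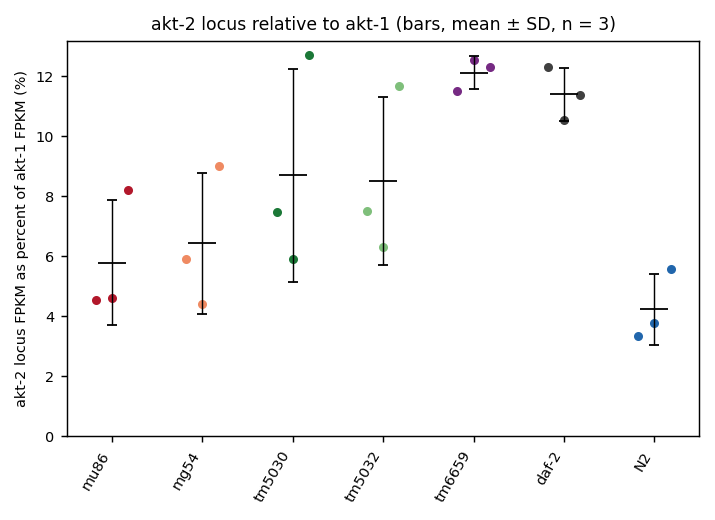
FPKM of the akt-2 locus as a percentage of akt-1 FPKM in each library, by genotype, with bars for the mean and SD of 3 libraries. Means are 5.78 and 6.44% in mu86 and mg54, 8.70 and 8.51% in tm5030 and tm5032, 12.1% in tm6659 and 11.4% in daf-2, and 4.23% in N2.

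SGK-1 is a kinase activated beside the AKTs. The sgk-1 locus, which also holds the intermediate filament gene mua-6, had 84.8, 108 and 132 CPM in mu86, against 93.9, 76.8 and 122 CPM in daf-2, and 90.8, 69.6 and 95.7 CPM in N2. The groups overlapped, and the library numbered 3 was the highest in every genotype. The change was 0.15 in mu86 against daf-2 and 0.19 in daf-2 against N2 (edgeR adjusted p = 0.553). On the log2(FPKM + 1) scale the latter was -0.49, also not called, beside a median of -0.37 over all loci. With the replicate block the locus was higher in mu86 than in N2 (0.34, edgeR adjusted p = 0.0143). The unblocked change on the log2(FPKM + 1) scale was -0.24, beside a median of -0.29 over all loci. In the same blocked comparison pdk-1 was lower by 0.29 (adjusted p = 0.0402), akt-1 by 0.35 (adjusted p = 0.00238) and daf-16 by 0.28 (adjusted p = 0.0236).

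**Figure D5:**
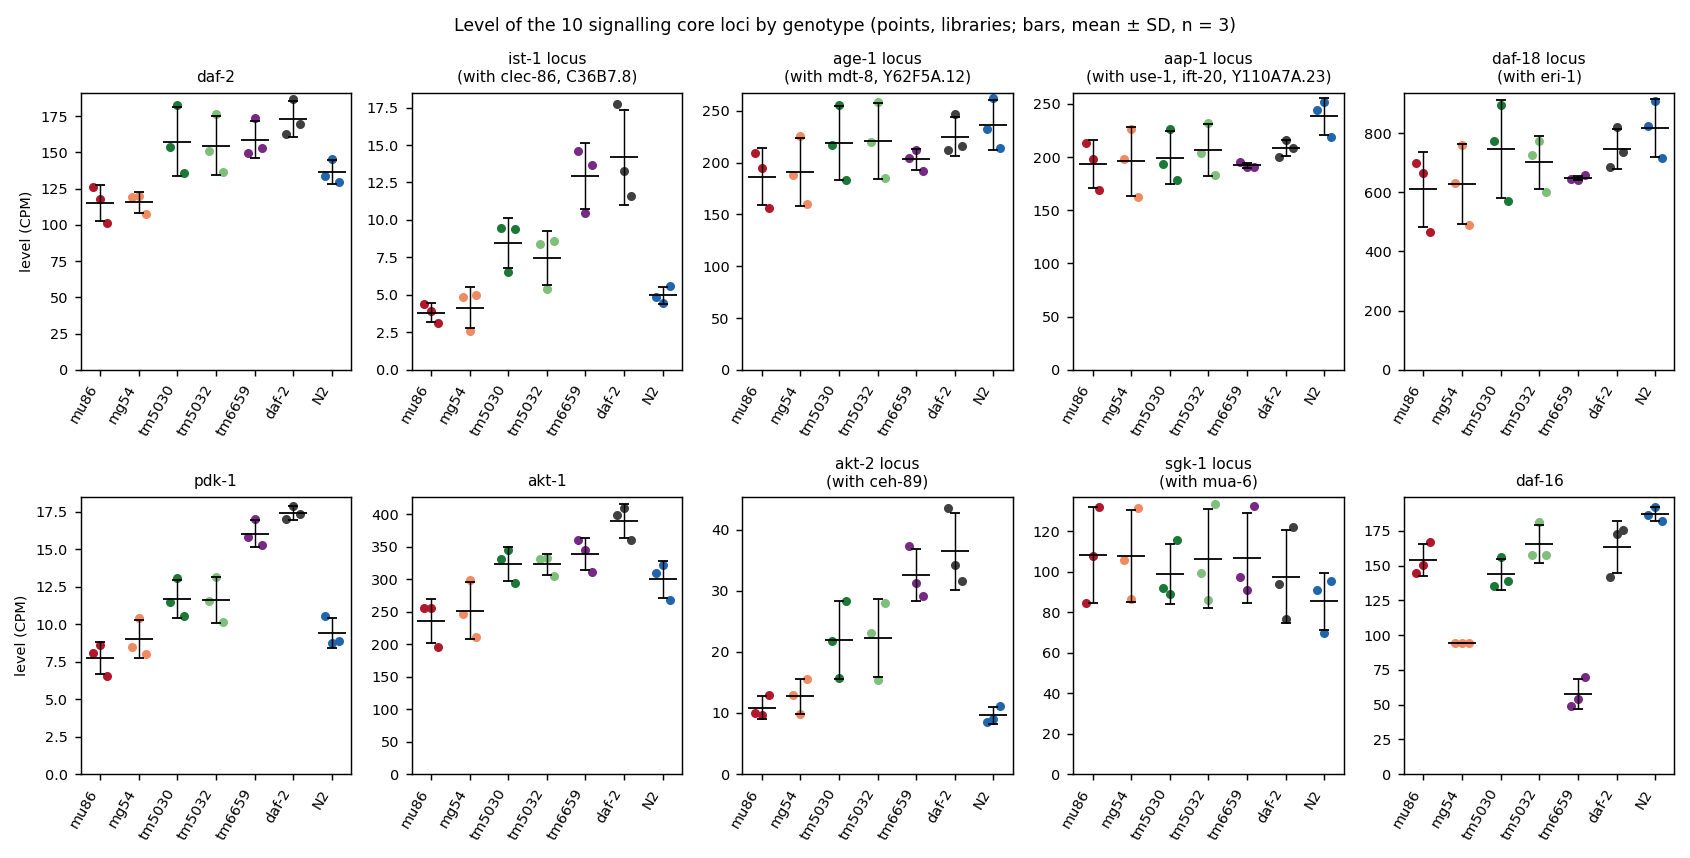
CPM of the 10 member loci by genotype, with 1 point per library and bars for the mean and SD of 3 libraries, each panel on its own scale. The ist-1 and akt-2 loci, pdk-1 and akt-1 have their highest means in daf-2 and their next highest in tm6659, while the age-1, aap-1, daf-18 and sgk-1 loci vary less between the genotype means; daf-16 is lowest in tm6659.

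The 5 mutants are given in order of mean CPM for the ist-1 locus, pdk-1 and the akt-2 locus. Single libraries did not always keep that order. For pdk-1, mg54 reached 10.4 CPM and tm5032 began at 10.1 CPM. For the akt-2 locus the values were 15.5 and 15.4 CPM, while for the ist-1 locus they were apart, at 4.96 and 5.38 CPM. In FPKM the order of the ist-1 locus differed, with means of 3.75 in tm5030 and 2.95 in tm5032, beside 3.21 in tm6659 and 3.25 in daf-2. pdk-1 and the akt-2 locus were lowest in mu86 and highest in tm6659 among the 5 mutants in FPKM too. For the ist-1 locus the means were 3.81 ± 0.639 CPM in mu86, 4.15 ± 1.35 in mg54, 7.45 ± 1.798 in tm5032, 8.47 ± 1.68 in tm5030 and 12.9 ± 2.19 in tm6659, against 14.2 ± 3.17 in daf-2 and 4.96 ± 0.557 in N2 (SD, n = 3 each). pdk-1 averaged 7.74 ± 1.08 CPM in mu86, 8.98 ± 1.27 in mg54, 11.6 ± 1.51 in tm5032, 11.7 ± 1.28 in tm5030 and 16.0 ± 0.885 in tm6659, against 17.4 ± 0.470 in daf-2 and 9.39 ± 0.993 in N2. The akt-2 locus averaged 10.9 ± 1.85 CPM in mu86, 12.8 ± 2.87 in mg54, 21.9 ± 6.31 in tm5030, 22.2 ± 6.36 in tm5032 and 32.5 ± 4.23 in tm6659, against 36.4 ± 6.30 in daf-2 and 9.62 ± 1.39 in N2. mg54 against mu86, tm5030 against tm5032 and tm6659 against daf-2 were not called different for these 3 loci by edgeR, and mg54 was not set against tm5030 or tm5032. Between mg54 and mu86 the changes were 0.12, 0.21 and 0.23 for the ist-1 locus, pdk-1 and the akt-2 locus, and between tm5030 and tm5032 they were 0.18, 0.01 and -0.02. The interval of that last value ran from -0.53 to 0.49, which leaves room for differences of that size.

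4 members lie on the X chromosome, namely pdk-1 and the ist-1, akt-2 and sgk-1 loci, and 3 of them are among those called higher in daf-2 than in N2. Over the 1686 tested X loci the median change in daf-2 against N2 was 0.20, and 13.2% were called higher, while the median over 8950 autosomal loci was 0.07. In mu86 against daf-2 the X median was 0.01. Markers of other tissues are given beside these values. The summed sperm markers spanned 750 to 1744 CPM in daf-2 and 360 to 1003 CPM in N2, with 1 of 33 tested loci called higher and 1 of the 35 listed at 0 in all libraries. The summed body wall muscle markers spanned 1807 to 3787 CPM in daf-2 and 1194 to 2612 in N2, with 0 of 6 called by edgeR, and the neuronal markers 290 to 328 in daf-2 and 283 to 311 in N2, with 1 of 9 called higher. The summed oocyte and germ line markers did not overlap, at 8314 to 9815 CPM in daf-2 and 10139 to 11495 in N2 (2 of 12 called lower), nor did the embryo markers, at 0.360 to 0.663 CPM in daf-2 and 1.62 to 2.86 in N2 (0 of 3 called by edgeR). In hypodermis 1 of 6 was lower and in intestine 1 of 7 was higher. The sums weigh the most abundant markers most. The median log2 change of the tested markers in daf-2 against N2 was 1.48 for sperm, 0.84 for muscle and 0.63 for neurons. It was -0.30 for oocyte and germ line, -1.11 for embryo, -0.74 for hypodermis and 0.08 for intestine. In mu86 the summed sperm markers spanned 978 to 2859 CPM, the muscle markers 2769 to 5006 and the neuronal markers 270 to 281. The median log2 change of these lists in mu86 against N2 was 1.98, 1.11 and 0.68, so the neuronal sum and median went opposite ways. The part of the X chromosome and of these tissues in the member changes was not tested.

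A wider list of 25 regulators of the pathway was counted in the same comparisons, and 21 of them had a tested locus. eak-3, eak-4, eak-6 and sdf-9, which act near AKT-1 at the membrane, did not pass the filter on low counts. In daf-2 against N2, 2 were higher and 2 lower, with a median change of -0.12, beside 16.7% of all loci called. The higher ones were ftt-2, a 14-3-3 protein gene whose product binds DAF-16, at 186 ± 4.09 CPM in daf-2 and 151 ± 4.58 in N2 (SD, n = 3 each; edgeR adjusted p = 0.0363), and aak-2, an AMP-activated kinase subunit, at 38.2 CPM in daf-2 and 29.3 in N2 (adjusted p = 0.017). The lower ones were par-5, the other 14-3-3 gene, at 1038 CPM in daf-2 and 1245 in N2 (adjusted p = 0.0473), and the locus of prmt-1 and mdt-17, at 866 CPM in daf-2 and 1260 in N2 (adjusted p = 0.000163). The PRMT-1 arginine methyltransferase modifies DAF-16.

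In mu86, 1 regulator was higher and 3 were lower than in daf-2, and in mg54 the counts were also 1 and 3, beside 10.3% and 9.35% of all loci called and again with the daf-2 libraries shared. The prmt-1 locus was higher (0.33 in mu86, edgeR adjusted p = 0.0129; 0.30 in mg54, adjusted p = 0.0218). ftt-2 fell to 144 ± 20.4 CPM in mu86, against 186 ± 4.09 in daf-2 (adjusted p = 0.0153). The locus of rict-1, the Rictor subunit of the TOR complex that acts through SGK-1, had 86.1 CPM in mu86 and 88.5 in mg54, against 134 in daf-2 (adjusted p = 0.0131 in mu86 and 0.0208 in mg54), and it is counted together with col-86. The locus of eak-7 and hsb-1 changed by -0.34 in mu86 (adjusted p = 0.0363) and by -0.33 in mg54 (adjusted p = 0.0473). In tm5030, tm5032 and tm6659 against daf-2, edgeR called 0 of the 21.

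By correlation of log2 CPM over the 21 libraries, the loci most like the changed members were closely matched, except for daf-16. hil-1 and alh-5 followed the akt-2 locus with r of 0.98 each, and scrm-1 and mtl-1 followed pdk-1 with r of 0.95 and 0.94. tbh-1 (0.95) and smp-1 (0.94) were nearest to the daf-2 transcript, tat-4 (0.95) and lipl-4 (0.93) to akt-1, and ttr-5 (0.94) and sru-40 (0.93) to the ist-1 locus. For daf-16 the nearest, bli-4 and best-13, reached only 0.76 and 0.72. Among the members themselves, the ist-1 and akt-2 loci reached 0.93 and akt-1 reached 0.91 with daf-2 and 0.89 with pdk-1. All these points share libraries, depth and the contrast of genotypes.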

How the data were processed

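The members and lists were chosen with earlier results of these data known. Per the submitters' processing notes, the authors used CASAVA 1.8.2, TopHat2 2.0.9 and Cufflinks 2.1.1; build and annotation: not given in the sources used here. In the deposited tables are the authors' expected counts of fragments, of which 86.3% are whole (tolerance 1e-09), and FPKM values, which the authors scaled for transcript length and library. FPKM is computed from transcripts, so it moves with how fragments are assigned among them, and the scaling of all libraries moves with it. 3 lines that are no locus and 300 loci with no gene name (1.06 to 1.54% of the counts) were left out of library sizes and tests.

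Counts were rounded and fitted over 21 libraries with edgeR 4.0.16 (R 4.3.3; TMM scaling, filterByExpr, quasi-likelihood test, 14 residual degrees of freedom, common biological coefficient of variation 0.346), with Benjamini-Hochberg adjustment over 12091 loci. CPM are linear and log2 CPM use a prior count of 2. FPKM per fragment and FPKM alternatives used limma 3.58.1, and DESeq2 1.42.0 was an alternative. The fit was run on simulated data drawn independently for each library. Shared deviations by library number were therefore not part of that check. Groups follow the sample titles; 10 comparisons were planned and 5 added with earlier results known (the mean of tm5030 and tm5032 against daf-2, and mg54, tm5030, tm5032 and tm6659 each against N2). The text names all 10 members, those of 25 further regulators that were called, and the 2 loci most like each called member. The replicate number was taken to pair samples where every same-number correlation exceeded 0.1. That held for mg54, tm5030, tm5032 and tm6659 against daf-2, and for mu86 and tm5030 against N2. It also held for mg54 against mu86, tm5030 against tm5032, and the mean of tm5030 and tm5032 against tm6659 and daf-2. Over all genotype pairs same-number r ran from -0.32 to 0.89, and different-number r reached 0.65. The rule therefore does not show that the number pairs libraries, and the blocked calls depend on it.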

Additional observations from a re-analysis of the deposited data

Results flagged for a closer look

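3 differences between daf-16 mutants, each tested on the difference itself, are given again as values. The daf-16 transcript was lower in mg54 than in mu86 (log2 change -0.71, edgeR adjusted p = 0.0277), a call lost without any 1 library. It was higher in the mean of tm5030 and tm5032 than in tm6659 (1.42, edgeR adjusted p = 4.8e-07). FPKM per daf-16 fragment was lower in mg54 than in mu86 (-0.57, limma adjusted p = 3.99e-06), a call lost without the libraries numbered 2 (adjusted p = 0.108) or numbered 3 (0.0595).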

How the results depend on the processing

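Counts of members called are edgeR's unless named. On the FPKM scale, with 1 or 0.1 added, they were 1 for daf-2 against N2 (5 in the counts), 2 for mu86 against daf-2 (5), 1 for mg54 against daf-2 (6), 0 for tm6659 against daf-2 (1), mg54 against mu86 (1), the mean of tm5030 and tm5032 against daf-2 (1), tm5030 against N2 (2) and tm5032 against N2 (1), and 2 for tm6659 against N2 (4). With 1 added, the loci called of 12091 were 1102, 776, 708, 7, 6, 256, 163, 195 and 778, in that order. Of 150 member changes, 39 had the opposite sign with both FPKM settings, and those called in the counts were in daf-2 against N2, where daf-2 was at -0.26 and -0.27 and akt-1 at -0.17 and -0.17; the median of all loci moved from 0.08 to -0.37 and -0.51. Relative log expression gave 3 for daf-2 against N2 (2125 of 12091 loci called) and 0 for mg54 against mu86 (3 loci). No filter gave 3 for daf-2 against N2 (1860 of 16700 loci) and 1 for tm5030 against N2 (987 loci). A mean of at least 2 CPM gave 1 for tm5030 and 1 for tm5032 against daf-2 (69 and 72 of 8583 loci called). It gave 2 for the mean of both against tm6659 (282 loci), as did upper-quartile scaling there (315 of 12091 loci). DESeq2 gave 3 for daf-2 against N2 (2646 of 33586 loci called). For tm5030 and tm5032 against daf-2 it gave 1 and 2 (285 and 273 loci). For their mean it gave 3 against tm6659 (563 loci) and 3 against daf-2 (435 loci). The replicate block gave 4 for tm5030, tm5032 and their mean against daf-2 (with 455, 439 and 695 of the 12091 loci called). It gave 4 for the mean against tm6659 (950 loci called) and 7 for mg54 against daf-2 (2300 loci called). Against N2 it gave 8 for mu86 and 6 for tm5030 (5827 and 4653 loci called). Where the libraries share only a number it gave 7 for mg54, 4 for tm5032 and 10 for tm6659 against N2 (5091, 4074 and 4991 loci called). It also added the age-1 locus in mu86 against daf-2 (-0.28, edgeR adjusted p = 0.0171). It changed no other comparison's count of members.

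Leaving out libraries gave 0 to 4 for daf-2 against N2 (326 to 2304 loci called). Against daf-2 it gave 1 to 5 for mu86 (223 to 1115 loci) and 1 to 6 for mg54 (180 to 1005 loci). For the mean of tm5030 and tm5032 against daf-2 it gave 0 to 1 (5 to 234 loci). Against N2 it gave 0 to 1 for mg54 (7 to 205 loci) and for tm5032 (68 to 1822 loci). For tm5030 against N2 it gave 0 to 3 (50 to 1431 loci), and for tm6659 against N2 1 to 6 (167 to 1887 loci). It gave 0 for tm5030 (1 to 77 loci) and tm5032 (4 to 90 loci) against daf-2. It also gave 0 for mg54 against mu86 (2 to 3 loci) and mu86 against N2 (5 to 206 loci). For tm6659 against daf-2 (4 to 19 loci) and the mean against tm6659 (17 to 321 loci) it gave 1. FPKM per daf-16 fragment differed by 0.45 to 0.49 for mu86 against daf-2, 0.44 to 0.50 for mu86 against N2 and -0.59 to -0.54 for mg54 against mu86. Without the 7 libraries numbered 1, the akt-2 locus in daf-2 against N2 stood at 1.62 (adjusted p = 0.0614), pdk-1 at 0.91 (adjusted p = 0.0794) and the ist-1 locus at 1.22 (adjusted p = 0.135). Over all loci, daf-2 against N2 had 2018 calls, 5330 with the block and 326 without the libraries numbered 1; mu86 against daf-2 had 1244, 2631 and 223. The causes were not tested.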
